A study of Danio rerio with 8 samples.

Results

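Keratins and the adhesion proteins that join skin cells were followed as a group of 36 rows in a table of 32020 zebrafish genes. Members were taken by name: 20 rows whose symbol starts with krt and a number, 2 whose symbol starts with cyt1, and 14 rows of cdh1, epcam, plakin, desmosome, claudin and tp63 genes, with or without a paralog suffix. Of 14 listed adhesion names, 13 had a row and evplb had none. Of the 36 rows, 32 had at least 10 counts over all libraries and were compared between groups. RNA came from zebrafish embryos of 2 groups. Treated embryos (libraries 5 to 8, n = 4) were exposed to the lipid 7,17-diHDPAn-3, which cells make by oxygenating an omega-3 docosapentaenoic acid, and control embryos (libraries 1 to 4, n = 4) are labelled only as control. The design text names the AB wild-type strain, Tg(gata1: Dsred) and Tg(CD41:GFP), a screen at 1.5 µM from 11 to 36 hours post fertilization with 7,17-diHDPAn-3 dissolved in ethanol, and a dose search from 1 to 1.75 µM. Which strain, dose, hours, embryo number or vehicle belongs to these 8 libraries is not stated in the labels. Every library name carries the mark gata_1, and that of control 4 alone also carries 2b. Neither mark is explained. The labels do not tie replicates to separate clutches either. p-values therefore weigh group differences only against the spread of these samples, part of which may be technical.

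The skin of a zebrafish embryo is an outer periderm, derived from the enveloping layer that covers the early embryo, lying on an inner basal layer whose cells depend on the transcription factor tp63. Keratins are intermediate filament proteins. Each filament is built from type I and type II keratins joined as partners, so an epithelial cell makes both kinds. Desmosomes anchor the filaments at cell borders, plakins such as periplakin and envoplakin tie filaments to the cell edge, cadherin 1 and Epcam hold neighbouring cells together, and claudins seal the tight junctions between them.

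Transcripts of skin were present in every library and their summed share of counts hardly differed between the groups on average. No member passed the test between treated and control embryos. The members with the smallest p-values were epcam and the claudin cldnb, both lower in treated libraries. Of 406 pairs of members compared, cyt1 with krt4 and envoplakin with periplakin had the steadiest ratios of counts from library to library.

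Libraries held 2502636 to 3800120 counts in the treated group and 3131969 to 4794081 in the control group. The cell type label of every library reads erythrocyte progenitors and erythrocytes. Red cell genes took 0.334% to 0.802% of counts in treated libraries and 0.379% to 0.842% in controls, and skeletal muscle genes took 0.873% to 1.81% in treated libraries and 0.155% to 1.40% in controls, so transcripts of other tissues were present beside those of red cells in both groups. Of the names listed, 3 of 16 for red cells and 3 of 17 for muscle matched no row, so both shares leave those genes out. Whether cells were sorted is not given in the sources used here. Values below are CPM, the counts of a gene relative to the size of its library, scaled between libraries by TMM and not divided by gene length, so levels of different genes are not compared. In bulk RNA fewer cells of a type and less RNA per cell cannot be told apart.

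The 36 rows together took 0.983%, 0.994%, 1.03% and 1.23% of all counts in treated libraries 5, 6, 7 and 8, against 0.970%, 1.45%, 0.757% and 1.07% in control libraries 1, 2, 3 and 4. The means were 1.06% ± 0.117 in treated and 1.06% ± 0.288 in control libraries (SD, n = 4 each). Control 2 was the highest and control 3 the lowest of all 8, and the treated libraries lay between them. Keratins made up most of this share, with 0.912% ± 0.110 in treated and 0.911% ± 0.256 in control libraries, and the adhesion genes with tp63 took 0.147% ± 0.0101 in treated and 0.150% ± 0.0323 in control libraries. The treated minus control difference of the whole share was -0.00195 percentage points, 0.126 without control 2 and -0.103 without control 3. Control 3 also had the largest share of red cell genes among the 8 libraries, 0.842%, and control 2 had 0.451%. The part of red cell or muscle content in the skin share was not tested.

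**Figure D1:**
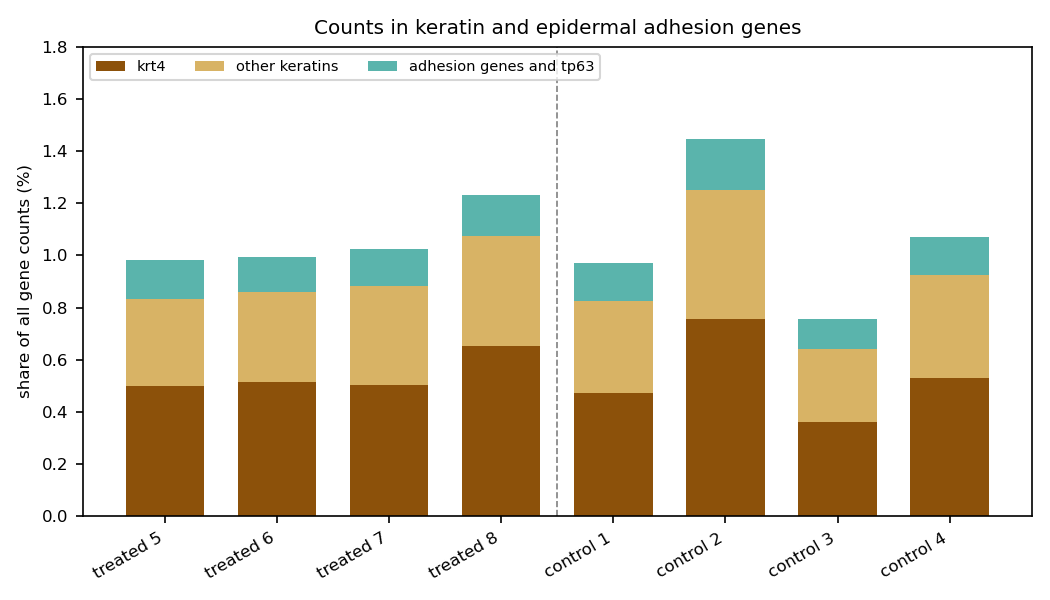
Share of all gene counts, in percent, held by krt4, the other keratins and the adhesion genes with tp63, stacked for each treated library (left of the dashed line) and each control library (right). The 4 treated bars reach 0.983% to 1.23% and lie inside the control range of 0.757% to 1.45%.

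Over the 29 members with a mean of at least 5 CPM the median coefficient of variation across 8 libraries was 26.6%, against 23.7% over all 11685 rows of at least 5 CPM. These sets were not matched for level, and steadiness also grows with the number of counts. Whether members vary more than rows of like level was not tested. Control 2 held the highest value for 14 of the 29 members and treated 8 for 10. The lowest value lay in control 3 for 9 members and in treated 6 for another 9.

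**Figure D2:**
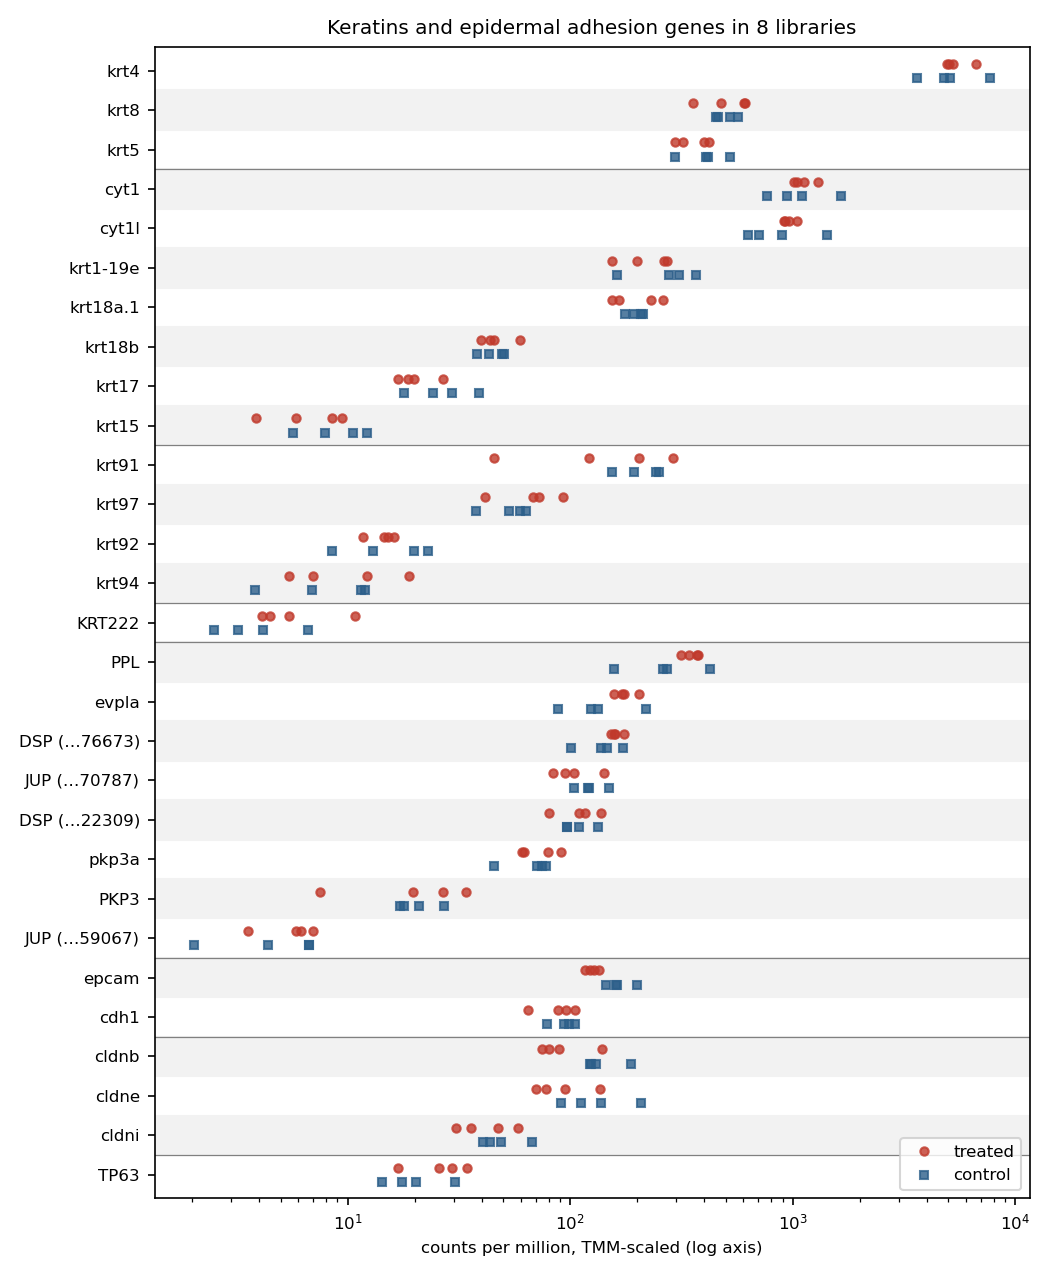
CPM on a log axis for the 29 members with a mean of at least 5 CPM, grouped by role, with 4 treated libraries (circles, above) and 4 control libraries (squares, below) for each. Rows that share a symbol carry the end of their gene ID; epcam is the 1 member whose groups do not overlap.

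Type II keratins did not differ between the groups beyond their spread. krt4, which marks the surface layer of the embryonic skin, stood at 5251, 5053, 4911 and 6625 CPM in treated libraries 5 to 8, against 4757, 7667, 3621 and 5091 CPM in controls 1 to 4. The groups overlapped, with control 2 above every treated library, controls 1 and 3 below every treated library, and control 4 within the treated range. Its log2 fold change, treated over control, was 0.05 ± 0.23 (SE, adjusted p = 0.997 in edgeR's quasi-likelihood test with Benjamini-Hochberg adjustment over 19151 rows, the test used throughout). The gene alone took 0.542% ± 0.0731 of counts in treated and 0.530% ± 0.166 in control libraries.

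krt5, whose mammalian counterpart builds the filaments of basal keratinocytes, had 295.2, 399.5, 320.6 and 421.8 CPM in treated libraries and 407.1, 521.2, 295.7 and 417.6 CPM in controls. Treated 5 and control 3 were the low libraries, and the log2 fold change was -0.19 ± 0.16 (SE, edgeR adjusted p = 0.954). krt8, the type II keratin of simple epithelia, had 475.9, 357.4, 610.0 and 601.7 CPM in treated libraries and 568.0, 522.5, 452.9 and 459.8 CPM in controls. Its treated values enclosed all control values, and the log2 fold change was 0.03 ± 0.15 (SE).

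Among the keratins grouped as type I by name, with krt91 to krt99 kept as a separate group, 9 rows were compared. Of these, 3 had lower and 6 higher treated values, and none passed. cyt1 had 1120, 1009, 1042 and 1295 CPM in treated libraries and 941.3, 1641, 762.7 and 1105 CPM in controls, a log2 fold change of 0.01 ± 0.22 (SE, edgeR adjusted p = 0.999). Its neighbour cyt1l had 1049, 915.4, 923.7 and 961.6 CPM in treated libraries and 707.4, 1429, 625.9 and 890.3 CPM in controls. For both genes the treated libraries lay close together and inside a wider control range set by control 2 and control 3. Controls 1 and 3 lay below every treated library for cyt1, and controls 1, 3 and 4 did for cyt1l. krt18a.1, the simple-epithelial partner of krt8, had 166.5, 153.6, 261.4 and 231.0 CPM in treated libraries and 212.4, 176.9, 192.7 and 207.3 CPM in controls, and here the treated libraries were the more spread group. krt18b had 39.8, 43.6, 45.5 and 59.8 CPM in treated libraries and 43.0, 50.2, 49.2 and 38.0 CPM in controls. Treated 8 was its highest and control 4 its lowest library, and the other treated values lay within the control range.

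krt1-19e, listed in RefSeq also under its older name krtt1c19e and known in zebrafish from basal keratinocytes, had 154.7, 263.0, 199.3 and 272.7 CPM in treated libraries and 278.8, 365.8, 162.1 and 307.3 CPM in controls. As with krt5, treated 5 and control 3 were the low libraries, and the log2 fold change was -0.32 ± 0.27 (SE, edgeR adjusted p = 0.961). krt17 had 26.8, 16.8, 18.7 and 19.9 CPM in treated libraries and 29.6, 39.0, 17.9 and 24.2 CPM in controls. Control 3 and control 4 lay within the treated range, and the log2 fold change of -0.44 ± 0.25 (SE) did not pass (edgeR unadjusted p = 0.0867, adjusted p = 0.795). krt15, in mammals a basal-layer keratin, had 5.87, 8.52, 3.87 and 9.42 CPM in treated libraries and 5.66, 7.95, 10.6 and 12.2 CPM in controls. Treated 7 was the lowest library and control 3 and control 4 lay above all treated libraries (log2 fold change -0.37 ± 0.35 SE).

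Among the members of at least 5 CPM, krt91 had the largest coefficient of variation in treated libraries, 64.0%. It stood at 45.3, 121.3, 204.0 and 291.0 CPM in treated libraries 5 to 8 and at 249.3, 192.8, 153.7 and 243.5 CPM in controls 1 to 4. Treated 5 lay far below the other libraries and treated 8 above them all. The log2 fold change of -0.34 ± 0.54 (SE, edgeR adjusted p = 0.995) was -0.04 without treated 5 and -0.76 without treated 8. krt97 had 67.9, 41.6, 72.3 and 92.6 CPM in treated libraries and 59.3, 53.1, 37.7 and 63.6 CPM in controls, with 3 of 4 treated libraries above every control (log2 fold change 0.35 ± 0.21 SE, edgeR adjusted p = 0.851). krt92 and krt94 had log2 fold changes of -0.14 ± 0.29 and 0.34 ± 0.40 (SE), and neither sign held without every library: krt92 was at 0.085 without control 2 and krt94 at -0.065 without treated 6.

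Several keratin rows were barely read. krt93, krt95 and krt98 had 0 counts in every library, which allows up to 0.789 to 1.2 CPM in single treated libraries and 0.626 to 0.958 CPM in single controls. These floors stand for 3 counts and cover counting error only. krt18a.2 had 2 counts in treated libraries, all in treated 7, and 7 in controls, all in control 1, and was not compared. krt99 had 0 counts in the 4 treated libraries and 13 in controls, 11 of them in control 2. Relative to library size, the pooled control counts, taken as they stand, were 3.61-fold a floor of 3 counts over the treated group. This figure rests on control 2 and is not a lower bound on a difference. krt99 met the filter through the control group alone. krt1-19d and krt1-c5 averaged 2.06 ± 1.16 and 5.0 ± 5.42 CPM in treated libraries and 0.877 ± 0.770 and 3.21 ± 3.71 CPM in controls. The sign of krt1-c5 rests on treated 8, without which its log2 fold change of 0.70 was -0.33. The keratin-like KRT222 had 5.45, 4.13, 4.46 and 10.8 CPM in treated libraries and 2.52, 6.67, 4.15 and 3.22 CPM in controls. Treated 8 stood above the rest, and the log2 fold change of 0.59 ± 0.46 (SE) was 0.17 without it.

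Plakin and desmosome genes had higher treated means in 7 of 8 rows compared, none past the threshold, with a median log2 fold change of 0.16. Over all rows 51.8% lay below 0. Among the higher rows, DSP ENSDARG00000022309, JUP ENSDARG00000059067, pkp3a and PKP3 turned sign when single libraries were left out. Periplakin (PPL), a plakin that links keratin filaments to the cell edge, stood at 373.6, 343.2, 314.4 and 372.6 CPM in treated libraries and at 260.6, 425.6, 157.9 and 271.6 CPM in controls. All 4 treated libraries lay above 3 of the controls and below control 2. Its log2 fold change of 0.33 ± 0.26 (SE, edgeR adjusted p = 0.954) was 0.60 without control 2 and 0.14 without control 3. Envoplakin (evpla), the partner of periplakin, had 203.8, 175.2, 157.3 and 171.7 CPM in treated libraries and 132.9, 219.4, 88.5 and 124.2 CPM in controls. As for periplakin, control 2 was the highest and control 3 the lowest library (log2 fold change 0.32 ± 0.23 SE, 0.61 without control 2 and 0.16 without control 3).

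Desmoplakin, the plakin that fastens keratins to the desmosome, has 2 rows under the name DSP, and the table does not say which is dspa. Row ENSDARG00000076673 had 151.8, 159.0, 157.9 and 175.0 CPM in treated libraries and 138.0, 173.3, 100.7 and 145.8 CPM in controls (log2 fold change 0.21 ± 0.14 SE, edgeR adjusted p = 0.904). Row ENSDARG00000022309 had 109.4, 80.0, 116.0 and 137.8 CPM in treated libraries and 109.4, 133.1, 96.5 and 97.2 CPM in controls. The groups overlapped in both rows. In row ENSDARG00000076673 controls 1, 3 and 4 lay below every treated library, and control 2 lay within the treated range. Plakoglobin (JUP), which joins desmosomal cadherins to desmoplakin, has 2 rows as well. Row ENSDARG00000070787 was the 1 row of this role with a lower treated mean, at 104.4, 84.1, 95.2 and 141.9 CPM in treated libraries and 120.8, 148.9, 103.9 and 120.9 CPM in controls (log2 fold change -0.22 ± 0.16 SE, edgeR adjusted p = 0.926). Row ENSDARG00000059067 had 5.87, 6.19, 3.57 and 7.00 CPM in treated libraries and 6.71, 2.05, 6.71 and 4.38 CPM in controls. Control 2 was its lowest library. The plakophilins are plaque proteins of the desmosome. pkp3a had 60.8, 62.2, 79.7 and 91.3 CPM in treated libraries and 70.9, 77.9, 45.4 and 74.9 CPM in controls. PKP3 had 19.7, 7.48, 26.8 and 34.2 CPM in treated libraries and 27.1, 21.0, 17.3 and 18 CPM in controls. Treated 8 was the highest library for both, and the lowest was control 3 for pkp3a and treated 6 for PKP3.

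epcam, a cell surface glycoprotein that binds its like on neighbouring epithelial cells, stood at 134.2, 116.7, 127.3 and 123.3 CPM in treated libraries 5 to 8 and at 160.4, 200.5, 161.7 and 144.9 CPM in controls 1 to 4. Every treated library lay below every control. The log2 fold change was -0.41 ± 0.12 (SE), with an unadjusted p of 0.00306 and an adjusted p of 0.592 in edgeR, so it did not pass over all rows. The value ran from -0.47 without control 4 to -0.32 without control 2, and the DESeq2 adjusted p was 0.151. cdh1, the E-cadherin of the adherens junction, had 105.2, 64.8, 88.3 and 96.1 CPM in treated libraries and 98.8, 105.6, 93.7 and 78.3 CPM in controls. Its groups overlapped and its log2 fold change was -0.09 ± 0.15 (SE, edgeR adjusted p = 0.995).

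All 3 claudins compared had lower treated means, and none passed. cldnb stood at 139.2, 80.5, 74.4 and 88.8 CPM in treated libraries and at 123.5, 188.2, 130.7 and 122.3 CPM in controls. Treated 6, 7 and 8 lay below every control, while treated 5 lay among them. The log2 fold change was -0.57 ± 0.20 (SE, edgeR unadjusted p = 0.0126, adjusted p = 0.652), -0.80 without treated 5 and -0.40 without control 2. cldne, a claudin of the enveloping layer, had 135.8, 70.5, 94.9 and 77.8 CPM in treated libraries and 111.5, 208.4, 90.8 and 137.8 CPM in controls. Its log2 fold change of -0.54 ± 0.30 (SE, edgeR adjusted p = 0.832) was -0.27 without control 2 and -0.76 without treated 5. cldni, known in zebrafish from basal keratinocytes, had 30.6, 47.2, 36.0 and 58.2 CPM in treated libraries and 67.1, 43.8, 48.9 and 40.8 CPM in controls, with overlapping groups (log2 fold change -0.22 ± 0.21 SE, -0.40 without treated 8 and -0.04 without control 1).

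**Figure D3:**
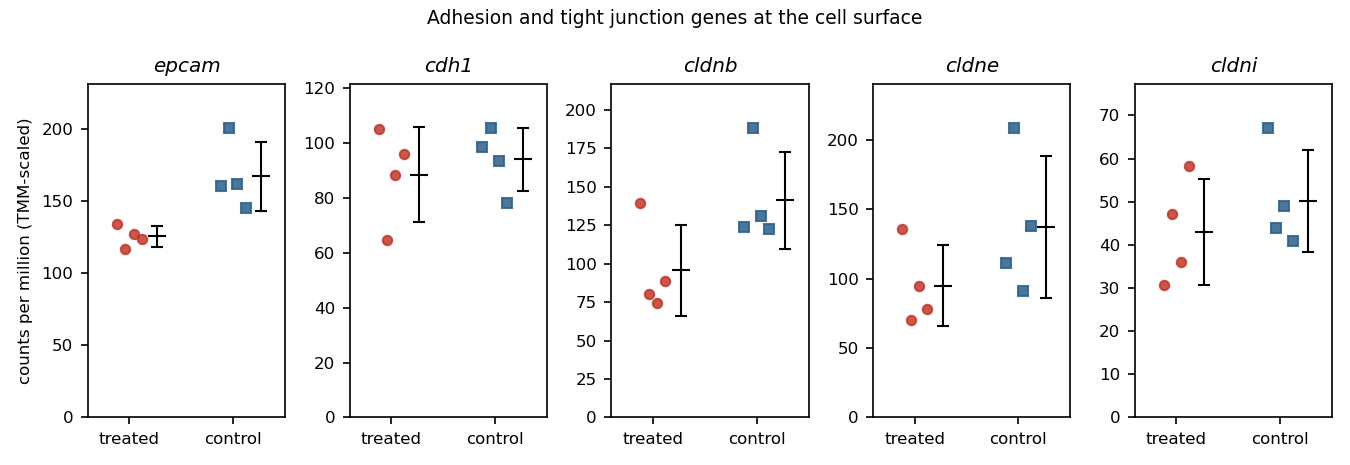
CPM of epcam, cdh1, cldnb, cldne and cldni in each treated library (circles) and each control library (squares), with the group mean and SD beside the points and axes from 0. The 4 treated values of epcam, 116.7 to 134.2 CPM, lie below the lowest control at 144.9 CPM, and the other 4 genes overlap.

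TP63, the regulator of the basal layer, had a higher treated mean. It stood at 16.8, 29.4, 25.9 and 34.5 CPM in treated libraries and at 30.4, 20.3, 17.6 and 14.3 CPM in controls. Treated 5, 6 and 7 lay within the control range, and controls 1, 2 and 3 lay within the treated range. The log2 fold change of 0.37 ± 0.26 (SE, edgeR adjusted p = 0.911) was 0.63 without control 1 and 0.22 without treated 8.

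Over the whole table edgeR called 3 of 19151 rows after adjustment (p of 0.05 or less), 0.0157%, and 0 of the 32 members. DESeq2 called 0.217% of the rows to which it gave an adjusted p and 0 members, with no adjusted p for 7 of them, and limma-voom called 0 rows. Before adjustment, 2 members with an edgeR p of 0.05 or less were lower, epcam and cldnb, and 0 higher, where 3.69% of all rows were lower and 3.17% higher. The groups did not overlap in 1 member, epcam, lower in treated libraries, against 2.23% of all rows not overlapping in that direction and 1.8% in the other. Both counts are near the background. Of the 32 members 13 had log2 fold changes below 0 and 19 above it, with a median of 0.04, and 51.8% of all rows lay below 0, with a median of -0.02. Single libraries moved the members' counts. At the same unadjusted p, 7 members were lower without control 3 (cldnb, cldne, epcam, krt1-19e, krt17, krt5 and krt99), where 3.24% of all rows were lower in that fit. Without treated 5, 4 were lower, against 3.92% of rows, and 3 were lower without control 1 (3.51% of rows) or without treated 8 (3.39% of rows). krt99, counted as lower without control 3 and without control 1, met the filter through the control group alone. Without control 2, 5 members were higher (krt4, cyt1l, PPL, evpla and DSP ENSDARG00000076673), against 2.61% of rows. TP63 was the 1 higher member without control 1 and krt97 the 1 without treated 6, against 2.96% and 3.09% of rows in those fits. epcam and cldnb were lower at this unadjusted p without each library in turn, in fits that share most of their libraries. The largest unadjusted edgeR p was 0.0229 for epcam, without control 2, and 0.0471 for cldnb, without treated 6.

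**Figure D4:**
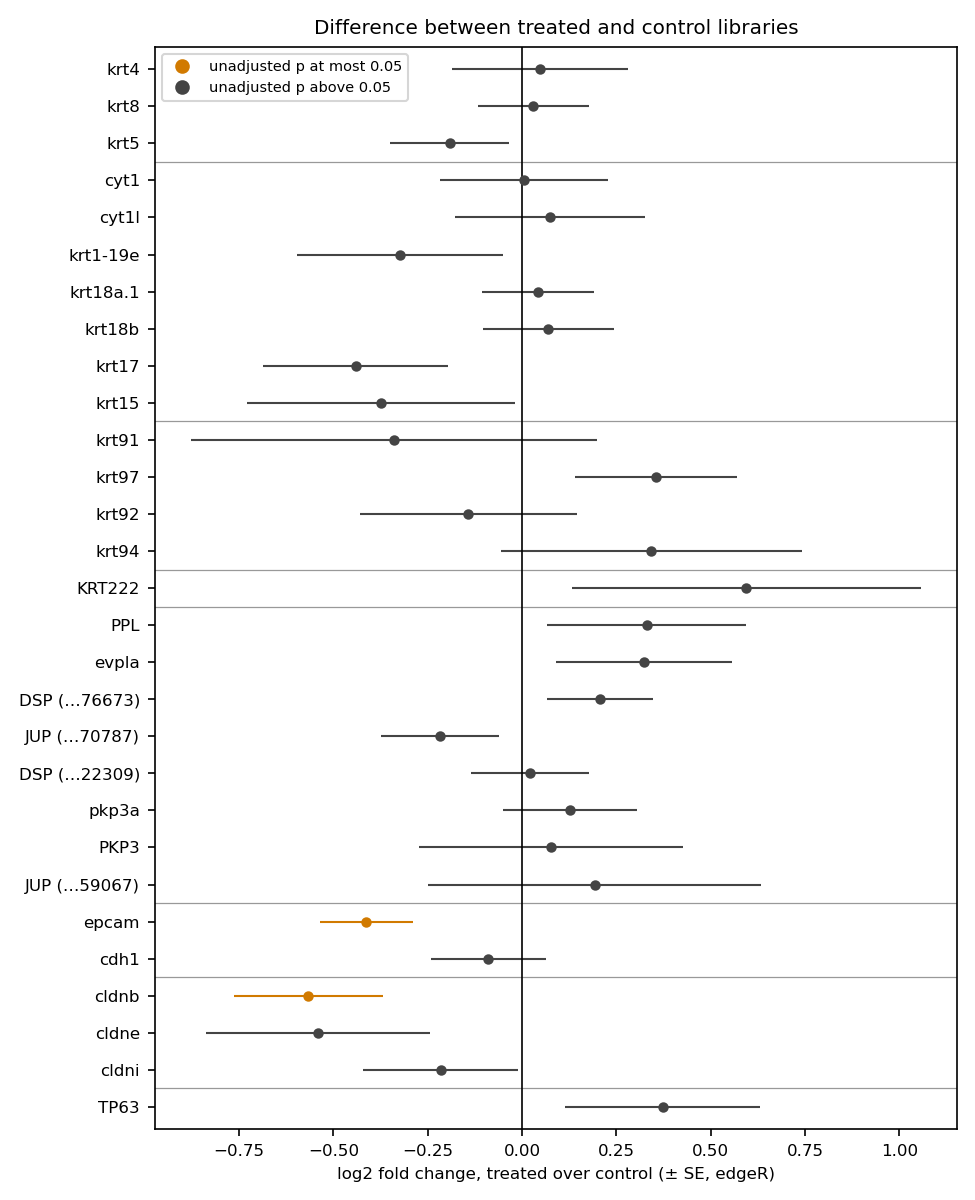
Log2 fold change, treated over control, with its SE from edgeR for the 29 members with a mean of at least 5 CPM, grouped by role as in the plot of CPM by library. epcam at -0.41 and cldnb at -0.57 (orange) have an unadjusted p of at most 0.05, and no member passes after adjustment over all rows.

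Ratios of counts within a library do not depend on the scaling between libraries. Among the 406 pairs of the 29 members, the steadiest ratio was that of cyt1 to krt4. It was 0.213, 0.200, 0.212 and 0.196 in treated libraries and 0.198, 0.214, 0.211 and 0.217 in controls. Its coefficient of variation over 8 libraries was 4.07%, while cyt1 and krt4 themselves varied by 23.5% and 23.0% in CPM. The second steadiest pair was envoplakin and periplakin, with evpla over PPL at 0.504 ± 0.0348 in treated and 0.511 ± 0.0424 in control libraries (SD, n = 4 each), a coefficient of variation of 7.10% against 27% and 26.6% for the single genes. The simple-epithelial partners krt18a.1 and krt8 had a ratio of 0.398 ± 0.0386 in treated and 0.397 ± 0.0506 in control libraries. krt1-19e over krt5 stood at 0.613 ± 0.0609 in treated and 0.668 ± 0.0825 in control libraries. krt91 over krt5 was far less even, at 0.153, 0.304, 0.636 and 0.690 in treated libraries and 0.612, 0.370, 0.520 and 0.583 in controls. The SD of the log2 ratio was 0.0592 for cyt1 and krt4 and 0.103 for PPL and evpla, against a median of 0.515 over the 406 pairs. Those pairs were picked as the steadiest, and the steadiness of pairs over all rows was not tested. Steadiness also grows with the number of counts, and krt4, cyt1 and PPL are among the members with most counts.

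Other proportions separated the groups. Counts of cldne over PPL were 0.364, 0.205, 0.302 and 0.209 in treated libraries and 0.428, 0.490, 0.575 and 0.507 in controls, with no overlap. The ratio of epcam to cdh1 averaged 1.45 ± 0.246 in treated and 1.78 ± 0.124 in control libraries, and overlapped. Of the 406 pairs 28 did not overlap between groups, 6.90%, against 4.65% of all pairs of the 11562 rows of at least 5 CPM with a count in every library. epcam and PPL were each in 8 of the 28 and evpla in 5, and no other member was in more than 3. These ratios were chosen after the counts were seen, pairs share genes, and no test was made on them.

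**Figure D5:**
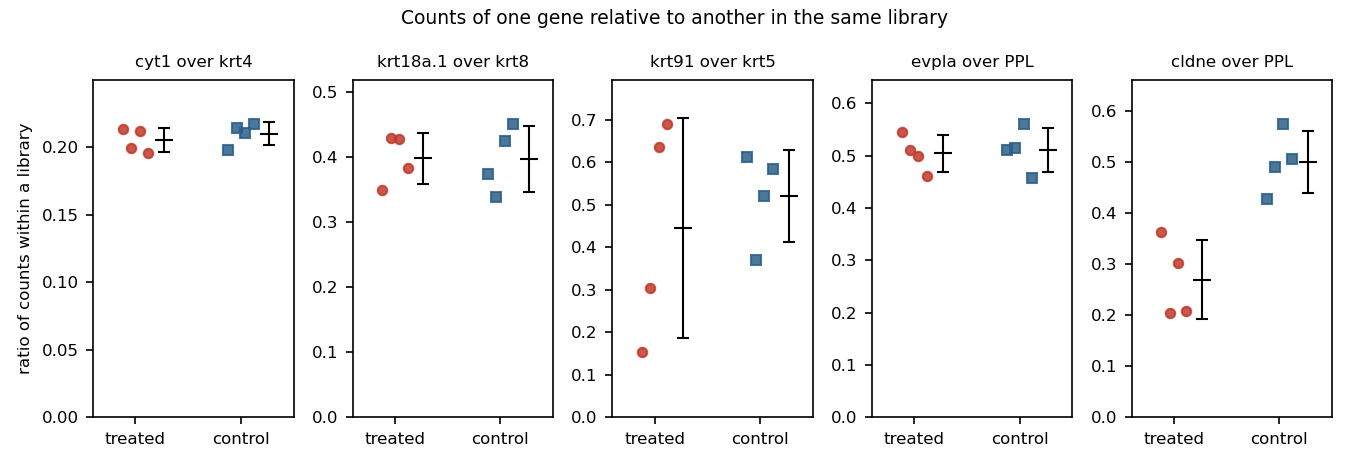
Ratio of the counts of one member to another in the same library, for treated (circles) and control (squares) libraries, with the group mean and SD and axes from 0. cyt1 over krt4 stays between 0.196 and 0.217 in all 8 libraries, krt91 over krt5 spreads widely, and cldne over PPL is at most 0.364 in treated and at least 0.428 in control libraries.

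Many keratin genes are neighbours. In the gene order of the RefSeq assembly GRCz12tu, krt1-19d, krt1-19e, krt92, cyt1l, cyt1, krt17, krt91 and jupb lie together within 9 protein-coding genes, krt5, krt8, krt18a.1 and krt18a.2 follow each other directly, and krt93, krt94, krt98, krt15, krt99 and jupa lie within 8. The ratio of cyt1l to cyt1 had a coefficient of variation of 8.5% over 8 libraries. Such copies can be alike in sequence, and how the authors' counting treated reads that match several of them is not given, so the split between cyt1 and cyt1l, krt1-19d and krt1-19e, or krt18a.1 and krt18a.2 is uncertain.

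Lists of related skin genes, and a list of other intermediate filament genes not confined to skin, gave 0 calls outside the members in edgeR over all rows. They were chosen with earlier results of these data known. At an edgeR unadjusted p of at most 0.05, 3.17% of all rows were higher and 3.69% lower. Log2 fold changes lay below 0 in 51.8% of all rows. Of 28 hemidesmosome and basement membrane genes, which fix basal cells to the matrix, 19 had higher and 9 lower treated values (median log2 fold change 0.11), with 2 higher at an unadjusted p of at most 0.05. Plectin (pleca), the plakin that ties keratins to hemidesmosomes, averaged 592.9 ± 72.3 CPM in treated and 450.0 ± 61.3 CPM in control libraries without overlap (log2 fold change 0.40 ± 0.12 SE, edgeR adjusted p = 0.566), and fras1 averaged 115.9 ± 28.2 CPM in treated and 87.2 ± 14.7 CPM in control libraries. Of 17 other tight junction genes 12 were lower and 5 higher (median -0.16, 2 lower at that p). Of the lower genes, cldn7b averaged 35.6 ± 10.0 CPM in treated and 56.9 ± 18 CPM in control libraries (log2 fold change -0.69 ± 0.23 SE, edgeR unadjusted p = 0.00758, adjusted p = 0.636). The occludin oclnb averaged 10.8 ± 1.18 CPM in treated and 15.5 ± 3.92 CPM in control libraries and was not among the 2 (edgeR unadjusted p = 0.0617). Of 16 epidermal transcription factors 11 were lower and 5 higher (median -0.12, 3 lower and 1 higher at that p). GATA3 averaged 42.7 ± 7.21 CPM in treated and 61.7 ± 18.7 CPM in control libraries, and ELF3 25.5 ± 9.30 CPM in treated and 39.3 ± 9.61 CPM in control libraries.

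Of 24 periderm and surface genes 13 were higher and 11 lower (median 0.02, 1 higher at that p). That 1 was the transglutaminase tgm1l1, at 15.2 ± 3.84 CPM in treated and 8.85 ± 3.58 CPM in control libraries. abcb5 was not counted (edgeR unadjusted p = 0.0769), at 51.4 ± 16.4 CPM in treated and 34.8 ± 14.2 CPM in control libraries. Of 15 genes listed as other desmosome and adherens junction genes 9 were lower and 6 higher (median -0.04, 0 at that p), with dsg2.1 at 67.8 ± 5.72 CPM in treated and 84.0 ± 24.0 CPM in control libraries. This list also held f11r.1, which encodes a junctional adhesion molecule of tight junctions, at 19.7 ± 3.1 CPM in treated and 24.0 ± 3.30 CPM in control libraries. Of 15 ionocyte genes 8 were higher and 7 lower (median 0.01, 2 higher and 1 lower at that p), with atp1a1a.2 and atp1a1a.4, sodium pump subunits, at log2 fold changes of 1.40 ± 0.39 and 1.41 ± 0.42 (SE), which were 0.825 without treated 6 for atp1a1a.2 and 0.91 without treated 7 for atp1a1a.4. Of 14 fin fold and skin matrix genes 6 were higher and 8 lower (median -0.02, 1 higher at that p), with FBLN1 at 1.3 ± 0.29 and SP9 at -0.53 ± 0.27 (SE). Of 17 other intermediate filament genes 14 were higher and 3 lower (median 0.18, 1 higher at that p). That 1 was nestin (nes), at 144.9 ± 24.3 CPM in treated and 98.1 ± 13.4 CPM in control libraries. The lamin LMNB2 was not counted (edgeR unadjusted p = 0.0910), at 553.9 ± 31.5 CPM in treated and 490.3 ± 44.9 CPM in control libraries.

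Markers of other tissues were measured in the same libraries, on lists also chosen with earlier results known. Over all rows 3.17% were higher and 3.69% lower at that edgeR p, and 51.8% had log2 fold changes below 0. Genes of a list share the same libraries, so their directions are not separate observations. All 14 red cell genes compared were lower (median -0.22, 0 at that p) and all 14 muscle genes higher (median 0.90, 1 at that p). All 9 lens genes were higher (median 1.31, 5 at that p), as were 12 of 13 notochord genes (median 0.33, 1 at that p), where krt8 and krt18 transcripts can also occur, and 9 of 10 endothelial genes (median 0.86, 8 at that p), with stab2 past the threshold (log2 fold change 1.54 ± 0.25 SE, edgeR adjusted p = 0.0308). Of 13 neural genes 9 were lower and 4 higher (median -0.04, 2 lower at that p). The part of these tissues in the values of the skin genes was not tested.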

How the data were processed

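The deposited table holds raw gene counts, as whole numbers, for 8 libraries, and 0 sample columns were left out. The submitters' processing notes name HISAT2 2.1.0, StringTie 1.3.3b, Trim Galore 0.5.0, CASAVA 1.8.2, DESeq2 1.22.1 and the build GRCz11, without roles. Per the labels' protocols, libraries were stranded total RNA depleted with mammalian ribosomal probes. Neither the annotation release nor the strand setting of counting is stated, so counts of overlapping or antisense genes are uncertain. PCR copies of a molecule are counted as separate reads.

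Symbols came from a name table that matched 28975 of 32020 row IDs. Members and gene lists were chosen with earlier results of these data known. Rows with at least 10 counts over 8 libraries (19151) were scaled by TMM and compared, treated over control, with edgeR 4.0.16 in R 4.3.3 (quasi-likelihood, robust dispersion, no covariate, Benjamini-Hochberg over all rows, threshold 0.05). The SE is the size of the log2 fold change over the root of F. The biological coefficient of variation was 0.332. Alternatives were RLE and total-count scaling, filterByExpr, a minimum of 1 count, DESeq2 1.42.0, limma-voom 3.58.1, non-robust dispersion, and each library left out. On simulated counts of 19151 genes, with changed genes of at least 5 CPM, edgeR found 3 of 50 true changes of 1.5-fold, 22 of 50 at 2-fold and 41 of 50 at 3-fold.

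Per-library values are given for 27 members: the 12 of highest mean CPM, the 10 of smallest p among those averaging 1 CPM or more, and a fixed set of named keratins and adhesion genes. From each list of other skin genes, and from that of other intermediate filament genes, the 2 genes of smallest p with a mean of at least 5 CPM were named. From the lists of other tissues, genes taken by the same rule entered only the search for outlying libraries, apart from stab2. Other members, and stab2 among the other tissues, were named to complete a count.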

Additional observations from a re-analysis of the deposited data

Results flagged for a closer look

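The 55 genes searched were the 27 members with per-library values and, from each other list, the 2 of smallest p averaging at least 5 CPM. Over their 110 group values, 3 had a library far from the other 3 of its group, where chance marks about 1 in 20 groups. Among the members this was cldnb in control 2, at 188.2 CPM against 122.3 to 130.7 CPM in the other controls. Outside the members they were atp1a1a.2 in treated 6, at 40.0 CPM against 13.4 to 14.0 CPM in the other treated libraries, and stab1 in control 3, at 21.1 CPM against 10.4 to 11.8 CPM in the other controls.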

How the results depend on the processing

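The number of members called stayed at 0 under every alternative run. Calls over all rows were 3, and 0 with filterByExpr (14249 rows), limma-voom or non-robust dispersion, 19 with DESeq2, and 0 to 2 without single libraries. Members at an unadjusted p of at most 0.05 were 2 lower and 0 higher, 3 lower with limma-voom or non-robust dispersion (adding cldne) and with a minimum of 1 count (adding krt99), and without single libraries 2 to 7 lower and 0 to 5 higher. krt99, with 0 treated counts, is also in the lower counts without control 1 and without control 3. The sign of small log2 fold changes turned for cyt1 with total-count scaling (-0.011) and for krt8 and PKP3 with limma-voom (-0.0067 and -0.136). Without single libraries 14 members turned sign, among them krt92, krt94 and krt1-c5, and the others within -0.13 to 0.25 for cyt1, -0.064 to 0.37 for cyt1l, -0.093 to 0.28 for krt4, -0.066 to 0.17 for krt8, -0.10 to 0.16 for krt18a.1, -0.067 to 0.14 for krt18b, -0.10 to 0.15 for DSP ENSDARG00000022309, -0.066 to 0.38 for JUP ENSDARG00000059067, -0.014 to 0.20 for pkp3a, -0.23 to 0.37 for PKP3 and -0.18 to 0.036 for cdh1. The cause was not tested. The other 16 members with per-library values kept their direction without each library. With 4 libraries a group at this depth, most changes near 1.5-fold could not be detected. No paired analysis was possible because the groups share no replicate numbers.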
